A study of Saccharomyces cerevisiae with 14 samples.

Results

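RNAs crosslinked to Hel2-HTP in wildtype yeast at 30°C were compared with the RNAs recovered from untagged cells at the same temperature, using 2 Hel2-HTP libraries and 2 untagged libraries of the 14 libraries examined. The method was CRAC, in which living cells are irradiated with UV light, the tagged protein is purified under denaturing conditions and the cDNAs of the attached RNA fragments are sequenced. All 4 cultures were *Saccharomyces cerevisiae* BY4741, a laboratory strain known to carry auxotrophic deletions, grown in SD-Trp at 30°C. The tagged strain carried Hel2-HTP::URA3, a genomic fusion of Hel2 to a His-TEV-ProteinA tag, and the untagged strain was labelled wt and carried no fusion protein. The libraries were chosen by their labels, with earlier results of these data known.

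Hel2 is an E3 ubiquitin ligase that recognises collided ribosomes. It ubiquitinates proteins of the small ribosomal subunit, among them uS10 (Rps20), and this starts ribosome-associated quality control and no-go decay of the mRNA. The yeast ribosome holds the 18S rRNA in its small subunit and the 25S, 5.8S and 5S rRNAs in its large subunit, and tRNAs sit between the subunits. An untagged culture carries RNA through the same purification without a tagged protein and therefore gives the background.

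The Hel2-HTP libraries had 2261279 and 961836 sense reads on features, and the untagged libraries had 1190800 and 70564. Sense reads were 1.90 times as many with Hel2-HTP as without it in the libraries numbered 1, and 13.6 times as many in the libraries numbered 2. Distinct cDNAs do not count repeated copies of a fragment but, unlike the sense reads, include both strands. Their number was 384673 and 456054 with Hel2-HTP and 157939 and 36698 in the untagged libraries. The untagged replicate 1 was therefore deep in reads but narrow, since only 2518 protein-coding features had a read there, against 3182 and 5168 in the Hel2-HTP libraries and 2315 in the shallow untagged replicate 2. Over 6454 protein-coding features, Spearman's rho was 0.607 between the Hel2-HTP replicates and 0.369 between the untagged replicates. The 95% Wilson interval given with a share covers counting error only, since PCR copies are not independent molecules. The study states that collapsed reads underestimate very abundant tRNAs and rRNAs because of its molecule identifiers. Where cDNAs give a smaller difference for these RNAs, that limit and the removal of copies cannot be told apart.

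The 18S rRNA of the small subunit held a far larger share of reads with Hel2-HTP than in the background, and the 25S rRNA of the large subunit a smaller one. The 18S rRNA took 32.9% and 33.8% of all sense reads with Hel2-HTP but 3.21% and 6.02% in the untagged libraries. The 25S rRNA took 10.2% and 13.99% with Hel2-HTP but 59.5% and 44.0% without it. The groups overlapped for neither rRNA, and the subunits stood in opposite order: 18S reads outnumbered 25S reads 3.23-fold and 2.41-fold with Hel2-HTP, whereas 25S reads outnumbered 18S reads 18.5-fold and 7.30-fold in untagged cells. As a percentage of 18S plus 25S reads, 18S made up 76.4% (interval 76.3 to 76.5) and 70.7% (70.6 to 70.8) with Hel2-HTP and 5.12% (5.07 to 5.17) and 12.04% (11.7 to 12.4) in the background. The means of 73.5% ± 4.00 and 8.58% ± 4.89 (SD, n = 2 each) differed by 65.0 percentage points, with an exact two-sided permutation p of 0.33, the smallest that 2 against 2 libraries allow. Counted as distinct cDNAs, 18S made up 70.9% and 62.4% with Hel2-HTP and 9.23% and 20.1% without it.

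**Figure D1:**
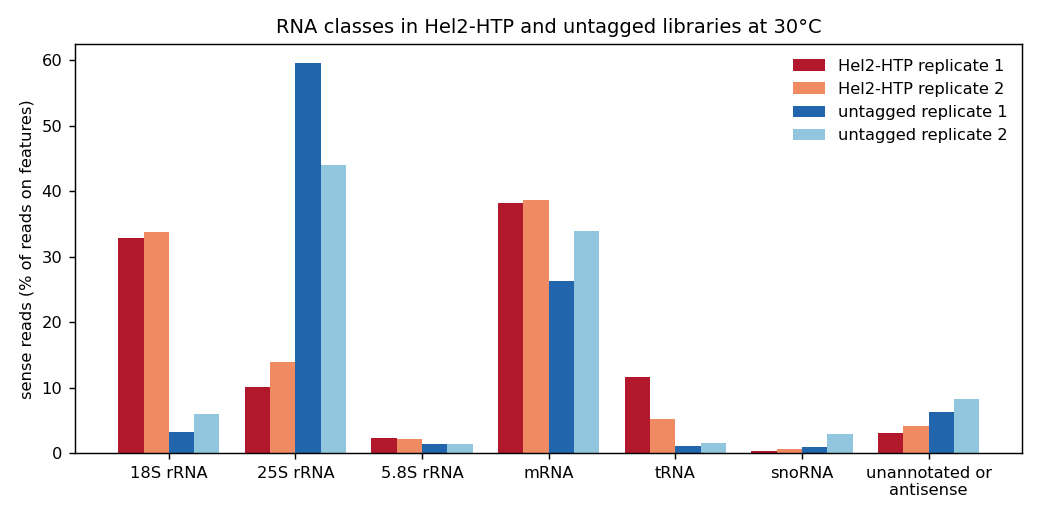
Sense reads of each RNA class as a percentage of the reads on features, 1 bar per library. The 18S bars of both Hel2-HTP libraries stand near 33% and the 25S bars of both untagged libraries at 44.0% and 59.5%, and the tRNA bars of Hel2-HTP exceed both untagged bars.

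The remaining rRNAs differed less. The 5.8S rRNA, which pairs with 25S rRNA in the large subunit, held 2.38% and 2.19% of reads with Hel2-HTP and 1.41% and 1.49% in untagged cells, and these ranges did not overlap. The 5S rRNA held 0.409% and 0.547% with Hel2-HTP against 0.546% and 0.782%, and the transcribed spacers of the rRNA precursor held 0.294% and 0.243% against 0.273% and 0.489%, so that both overlapped between the groups. All rRNA together made up 46.2% and 50.8% of reads with Hel2-HTP and 65.0% and 52.8% in the untagged libraries (exact permutation p = 0.33).

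The same 18S share was set beside the other libraries of the series. In the 10 libraries with a tagged protein, which include Hel2-HTP in *new1Δ* cells at both temperatures and New1-HTP at 20°C, it lay between 64.1% and 77.0%. The untagged libraries at 20°C held 42.2% (interval 36.2 to 48.4, from 105 and 144 reads on 18S and 25S) and 46.8% (46.3 to 47.4). By reads, each untagged library thus had a smaller 18S share than every tagged library. Counted as cDNAs, the first untagged library at 20°C held 61.0% (47 and 30 cDNAs), which lies within the tagged range of 59.0% to 70.9%. Cultures at 20°C and 30°C also differed in medium, volume and library preparation, so temperature and protocol cannot be told apart.

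**Figure D2:**
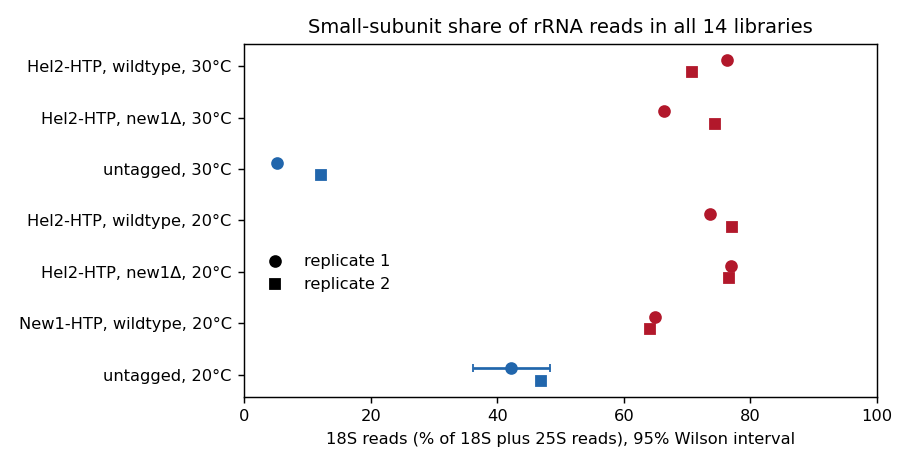
18S reads as a percentage of 18S plus 25S reads in all 14 libraries, with circles for replicate 1, squares for replicate 2 and bars for the 95% Wilson interval. The tagged libraries (red) lie between 64.1% and 77.0%, the untagged libraries (blue) at 5.12% and 12.04% at 30°C and at 42.2% and 46.8% at 20°C.

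Every feature was then compared by its sense reads in edgeR's quasi-likelihood test, after TMM scaling and with Benjamini-Hochberg adjustment, and a feature was called at an adjusted p of 0.05. None of 4145 features (0%) was called, although 531 (12.8%) had an unadjusted p under 0.05 on the side of Hel2-HTP and 56 (1.35%) on the side of the untagged cells. The lowest adjusted p was 0.288. With the replicate number, which marks a shared sequencing run, as a block, 155 features were called, 152 higher and 3 lower. The block leaves too few libraries to measure the spread of each feature, so its p-values rest on a spread pooled over features. For *RPP2B* the SE rose from 0.604 to 0.996 with the block, yet the unadjusted p fell from 0.000443 to 8.33e-09. In the main test the common dispersion was 2.49, and 659 of the 4145 tested features were without a read in both libraries of a group. Within the 556 features that had at least 10 reads in every library (hereafter well-covered features), the same test called 57 higher with Hel2-HTP (10.3%) and 12 lower (2.16%). With distinct cDNAs, which are counted on both strands, 169 of 3271 features were called higher (5.17%) and 1 lower (0.0306%). Of the 57 well-covered features called higher, 35 were also called with cDNAs, which is 61.4% of the former and 20.7% of the latter. None of the 12 called lower was called with cDNAs. In CPM, the reads of a feature per 1000000 TMM-scaled library reads, both Hel2-HTP libraries lay above both untagged libraries for 1401 of the 4145 features (33.8%) and below them for 522 (12.6%). Adjusted p-values below come from the well-covered features unless the cDNA test is named. Fold values are ratios of mean CPM with the TMM factors of the main test, whereas the well-covered fit has TMM factors of its own. A fold and the adjusted p beside it thus rest on different scalings. For *ADH1* the log2 fold change was 4.86 in the main test and 4.39 in the well-covered fit. Scaling by library totals alone shifts the median log2 fold change of all features by 0.85 towards the untagged cells. Fewer molecules of an RNA and less crosslinking of each cannot be told apart in such values. In the fit of well-covered features the log2 fold change of 18S rRNA was 3.37 (SE 0.26, adjusted p = 0.00230, the lowest of the 556) and that of 25S rRNA was -1.78 (SE 0.45, adjusted p = 0.0481). The call of 25S was lost with cDNAs (adjusted p = 0.0558) and with the block (adjusted p = 0.971).

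**Figure D3:**
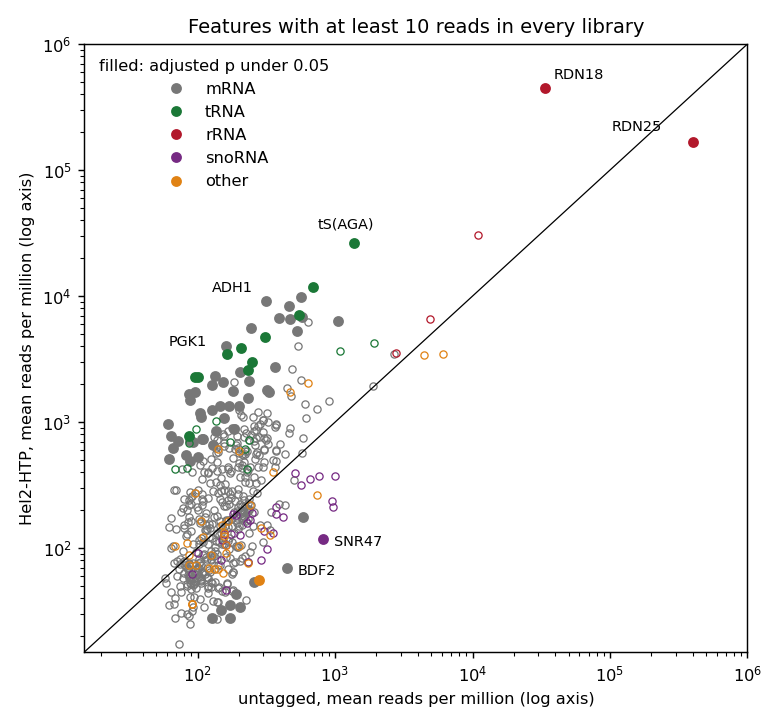
Mean CPM of the 556 well-covered features in untagged (x axis) and Hel2-HTP libraries (y axis), both on log axes, with the line of equality. Filled points had an adjusted p under 0.05: 57 lie above the line, among them RDN18, ADH1 and 11 tRNA types, and 12 lie below it, among them RDN25, BDF2 and SNR47.

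tRNAs made up a larger part of the Hel2-HTP libraries than of the background. They took 11.7% and 5.28% of reads with Hel2-HTP against 1.12% and 1.57% in the untagged libraries, a 6.30-fold ratio of means (8.47% ± 4.51 against 1.34% ± 0.32, SD, n = 2 each, exact permutation p = 0.33). Counted as cDNAs, tRNAs took 4.85% and 3.25% against 0.788% and 1.47%. The Hel2-HTP replicates differed from each other by more than the untagged ones did. When the 288 tRNA features were summed by anticodon, all 42 nuclear-encoded types that were tested had a positive log2 fold change, with a median of 3.54, and for 40 of them both Hel2-HTP libraries exceeded both untagged ones. Among the 21 nuclear-encoded types that were well covered, 11 were called higher and none lower. These are 50% of the 22 tRNA features tested there, which include the tRNAs without an anticodon in their name, beside 10.3% of all well-covered features. With cDNAs 11 of 40 were called higher, beside 5.17% of all features in that test. In the untagged libraries at 20°C tRNAs held 15.8% (of 829 reads) and 2.61%, so at that temperature 1 control library exceeded and 1 lay below the Hel2-HTP wildtype libraries (6.56% and 7.44%).

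Mature tRNA sequences are shown for types with a large difference, tS(AGA), tK(CUU), tE(CUC) and tG(UCC), and for types with small ones, tG(GCC) and tY(GUA). The sequence of tMi(CAU), which overlapped between the groups, is added. Types carrying the same amino acid, such as the glycine pair, can thus be set side by side. The sequences are from the RefSeq annotation of the R64 genome, 5′ to 3′, with introns removed, and capitals mark the anticodon. The tS(AGA) sequence is that of the gene at chrI:182522-182603, minus strand, and is shared by 10 of 11 tS(AGA) genes. The tK(CUU) sequence (chrIII:151284-151356, minus) is common to all 14 genes of the type. The others are at chrIV:1017207-1017278 (minus) for tE(CUC), chrVII:779616-779687 (plus) for tG(UCC), chrII:197629-197699 (minus) for tG(GCC), chrIV:946312-946400 (plus, with an intron) for tY(GUA) and chrV:100133-100204 (plus) for the initiator tMi(CAU).
Serine type tS(AGA): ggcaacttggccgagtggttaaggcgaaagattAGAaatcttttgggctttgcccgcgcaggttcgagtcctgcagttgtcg
Lysine type tK(CUU): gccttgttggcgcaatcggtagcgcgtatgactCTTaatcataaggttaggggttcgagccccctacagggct
Glutamate type tE(CUC): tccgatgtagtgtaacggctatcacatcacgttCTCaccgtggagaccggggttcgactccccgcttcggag
Glycine type, high fold tG(UCC): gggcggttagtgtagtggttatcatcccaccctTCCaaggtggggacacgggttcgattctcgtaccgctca
Glycine type, low fold tG(GCC): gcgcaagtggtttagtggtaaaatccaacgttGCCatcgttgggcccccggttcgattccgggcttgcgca
Tyrosine type tY(GUA): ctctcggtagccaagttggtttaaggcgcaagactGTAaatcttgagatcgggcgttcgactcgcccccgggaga
Initiator methionine type tMi(CAU): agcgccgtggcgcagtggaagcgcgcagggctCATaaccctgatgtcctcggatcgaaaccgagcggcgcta

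The serine tRNA tS(AGA) carried the most tRNA reads with Hel2-HTP, with 62369 and 13370 reads against 2187 and 126, and made up 23.7% and 26.3% of tRNA reads against 16.4% and 11.4%. It was 19.2-fold higher in CPM (log2 fold change 3.88 in the well-covered fit, adjusted p = 0.0131). With cDNAs its log2 fold change was 2.42 (adjusted p = 0.0303), and the excess of its share of tRNA, 11.1 percentage points by reads, was 2.19. The lysine tRNA tK(CUU) followed with 34150 and 4099 reads against 971 and 72 (17.3-fold, adjusted p = 0.0203). Single gene copies held much of both types although the mature sequences are shared. The feature tS(AGA)D1 had 49.6% and 33.7% of the tS(AGA) reads with Hel2-HTP and 41.2% and 35.7% in untagged cells, while no other of the 10 copies had more than 3578 reads in a library. The feature tK(CUU)M had 86.7% and 79.0% of the tK(CUU) reads with Hel2-HTP and 59.8% and 86.1% without it. How identical copies divide reads depends on the alignment, so values are given per type.

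The largest folds among well-covered types were those of the glycine tRNA tG(UCC), with 6560 and 813 reads against 99 and 13 (23.9-fold, adjusted p = 0.0135), and of the glutamate tRNA tE(CUC), with 5445 and 1157 against 136 and 11 (22.9-fold, adjusted p = 0.0131). The second glutamate type, tE(UUC), was 18.7-fold higher, with 10182 and 1645 reads against 279 and 23. Aspartate tRNA tD(GUC) had 20394 and 2425 reads against 557 and 75 and was 12.8-fold higher (adjusted p = 0.0250). Arginine tRNA tR(CCU), encoded by a single gene (*HSX1*), had 4318 and 330 reads against 51 and 7 and was too sparse in the background for the well-covered set, and with the block it was called (adjusted p = 7.66e-05). The valine tRNAs tV(AAC), with 1989 and 366 reads, and tV(CAC), with 1535 and 164, had no read in either untagged library. With 3 reads allowed in each untagged library, they were at least 53.0-fold and at least 34.4-fold higher with Hel2-HTP. The glutamine tRNA tQ(CUG) had 1436 and 221 reads against 7 and 0. These 3 types were called with cDNAs and with the block.

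The glycine type tG(GCC) had 11856 and 1572 reads with Hel2-HTP against 3506 and 137 and was only 2.22-fold higher (adjusted p = 0.464), and it made up 4.50% and 3.09% of tRNA reads with Hel2-HTP but 26.3% and 12.4% in untagged cells. The histidine type tH(GUG) was 3.38-fold higher (2727 and 3642 reads against 1280 and 133, adjusted p = 0.199), and the tyrosine type tY(GUA) was 1.86-fold higher (861 and 259 against 119 and 40, adjusted p = 0.432), although scaling by library totals turns the sign of the latter. The initiator methionine tRNA tMi(CAU), which only starts translation, had 114 and 39 reads against 88 and 0 and overlapped between the groups. It gave 0.0433% and 0.0768% of the tRNA reads with Hel2-HTP. Differences in fold between types were not tested.

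**Figure D4:**
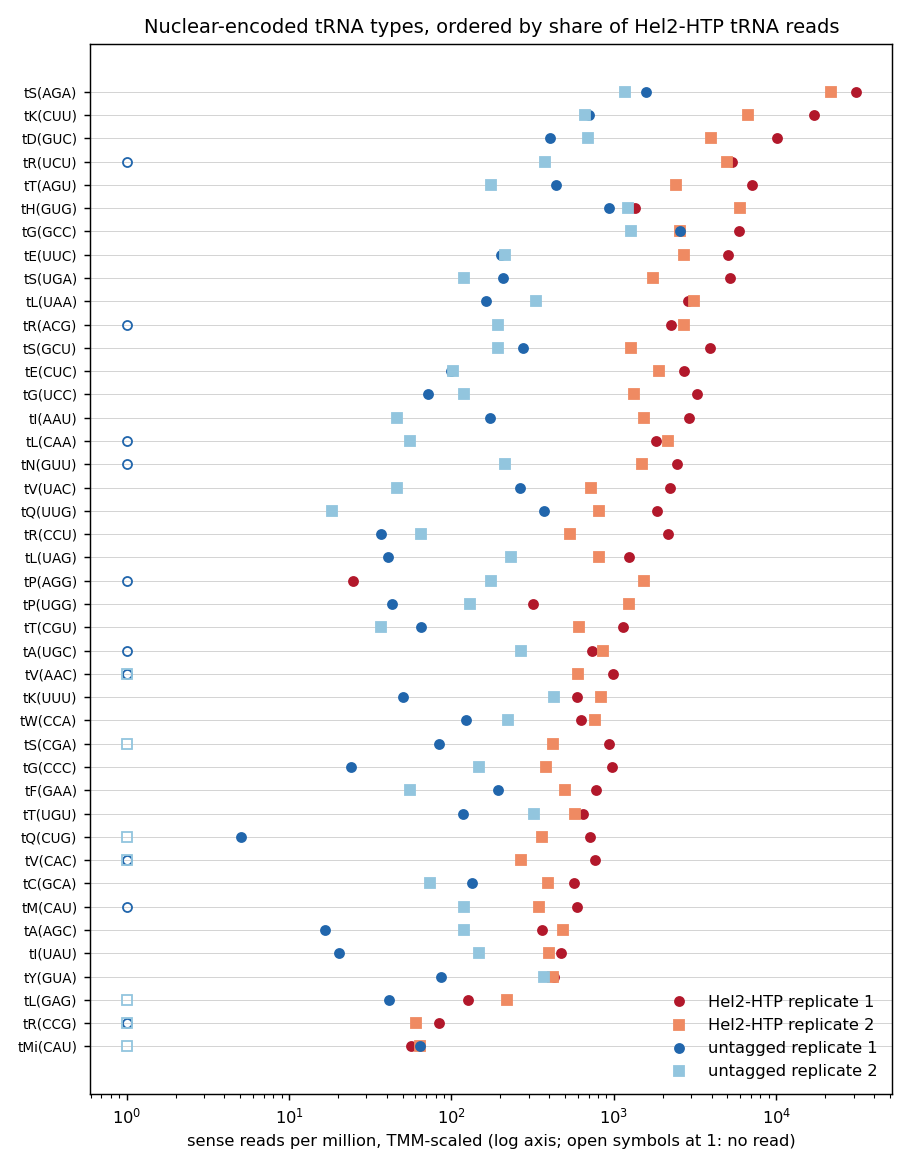
CPM (log axis) of the 42 nuclear-encoded tRNA types in each library, ordered by the mean share of tRNA reads with Hel2-HTP, with open symbols at 1 for libraries without a read. Red and orange points (Hel2-HTP) lie to the right of the blue points (untagged) for 40 of 42 types, all except tP(AGG) and tMi(CAU). For tG(GCC) and tY(GUA) the nearest points of the groups lie close together. For tMi(CAU) 1 untagged point lies among the Hel2-HTP points and the other is an open symbol at 1.

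mRNA made up 38.2% and 38.7% of reads with Hel2-HTP and 26.3% and 34.0% in untagged cells (exact permutation p = 0.33), so mRNA was a large part of the background too. Counted as cDNAs, mRNA made up 25.7% and 28.4% with Hel2-HTP and 28.3% and 25.6% without it, and the groups overlapped. Since cDNAs are counted on both strands, unannotated or antisense transcripts took 48.7% and 49.1% of them with Hel2-HTP and 43.0% and 46.7% without it. By sense reads that class held 3.13% and 4.26% against 6.29% and 8.31%. Shares by cDNAs are therefore not on the same base as shares by reads. Of 463 well-covered mRNAs 45 were called higher with Hel2-HTP (9.72%) and 9 lower (1.94%), and over all 3506 tested protein-coding features both Hel2-HTP libraries exceeded both untagged ones for 1241 (35.4%) and lay below both for 398 (11.4%). The mRNAs with the most reads with Hel2-HTP were *TDH3*, *ENO2*, *ADH1*, *RPL10*, *PDC1*, *CDC19*, *CCW12*, *FBA1*, *TEF1* and *TEF2*. All of them except *FBA1* (adjusted p = 0.0532, and 4.75e-06 with the block) were called in the well-covered set.

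*ADH1* (chrXV:159548-160594, minus strand), the alcohol dehydrogenase of fermentation, had 14920 and 6703 reads with Hel2-HTP and 488 and 30 in untagged cells. In CPM these were 7417 and 10967 against 355 and 278, a 29.1-fold difference. In the well-covered fit the log2 fold change was 4.39 (SE 0.53, adjusted p = 0.00877). *PGK1* (chrIII:137746-138996, plus), which encodes phosphoglycerate kinase, had 6799 and 2816 reads against 203 and 19 (24.7-fold, adjusted p = 0.00877). *TEF1* (chrXVI:700594-701970, plus), which encodes elongation factor eEF1A, had 9920 and 3822 reads against 297 and 30 (22.7-fold, adjusted p = 0.00877). Its near-identical copy *TEF2* had 9968 and 3460 against 460 and 78, and reads of this pair may be divided between the copies. The glyceraldehyde-3-phosphate dehydrogenase mRNA *TDH3* (chrVII:882812-883810, minus) had 16293 and 7083 reads against 677 and 69 (17.4-fold, adjusted p = 0.00877), with the related *TDH2* as a possible source of shared reads. Neither Hel2-HTP library overlapped the untagged ones for any of these mRNAs.

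*RPP2B* (chrIV:1239492-1239824, plus), which encodes a P-stalk protein of the large subunit, had the lowest p of the 4145 features in the main test (2246 and 660 reads against 30 and 2, 54.5-fold, unadjusted p = 0.000443, adjusted p = 0.288), and was called with cDNAs (adjusted p = 0.0187) and with the block (adjusted p = 1.28e-06). *RPL3*, for an early-assembling protein of the large subunit, had 4481 and 1488 reads against 188 and 14 (17.5-fold, adjusted p = 0.0131). *ENO2*, the enolase mRNA, had 15793 and 5466 reads against 736 and 43 (3.73 on the log2 scale, SE 0.53, adjusted p = 0.0131). The features YDR133C and YDR134C (named *CCW22* in RefSeq) had 2931 and 976 and 2560 and 817 reads with Hel2-HTP and the same 45 and 5 reads in untagged cells, and cannot be read as separate mRNAs. Together with tE(CUC), tS(AGA), *ADH1*, *PGK1* and *TEF1*, these features had the lowest p on the side of Hel2-HTP among those with at least 30 reads in both Hel2-HTP libraries, and none passed the adjusted threshold in the main test. Per kilobase of coding sequence the cell wall protein mRNA *CCW12* stood highest of the named mRNAs with Hel2-HTP (15672 CPM per kilobase), ahead of *TDH3* (9854), *RPL10* (9833) and *ADH1* (8779), but *CCW12* was also high in the background (922 and 1176 CPM, against 5390 and 7210 with Hel2-HTP) and its fold was 6.01.

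The gene groups described next are known groups of mRNAs, and for each the median log2 fold change over tested members in the main test is given, beside a median of 0.30 over all 4145 features and 0.42 over protein-coding ones. Counts of members stand beside these shares: of tested protein-coding features 35.4% lay above the background in both libraries and 11.4% below. Of well-covered mRNAs 9.72% were called higher. Glycolytic mRNAs took 10.3% and 9.70% of mRNA reads with Hel2-HTP and 2.29% and 1.59% in untagged cells. Both Hel2-HTP libraries exceeded both untagged libraries for all 16 tested members, the median was 3.89 (3.65 with the member absent from the background at its bound), and 8 of 12 well-covered members were called higher. Fermentation mRNAs such as *PDC1*, which encodes pyruvate decarboxylase, took 3.12% and 3.62% against 0.52% and 0.41%, with a median of 4.14 over 6 tested members. Both well-covered members, *PDC1* (11.8-fold) and *ADH1*, were called.

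Translation elongation factors took 4.13% and 3.66% of mRNA reads against 1.01% and 0.98%. All 10 tested members were above the background in both libraries, the median was 3.23, and 4 of 6 well-covered ones were called. Of these, *EFB1* (eEF1B alpha) was 6.73-fold higher but overlaps the snoRNA gene *SNR18* on the same strand, and *YEF3*, which encodes the fungal factor eEF3, had 4367 and 1921 reads against 1105 and 19 without being called (5.43-fold, adjusted p = 0.158). It was called with the block (adjusted p = 0.00335). Initiation factors took 0.96% and 1.09% of mRNA reads against 0.84% and 0.85%. For them 16 of 26 tested members lay above the background in both libraries and 1 below, with a median of 1.74. None of 6 well-covered members was called, which is near the 9.72% called higher of all well-covered mRNAs. *TIF1* and *TIF2*, near-identical genes for eIF4A, were 4.16-fold and 4.16-fold higher (adjusted p = 0.0925 and 0.0610), the helicase mRNA *DED1* was 2.23-fold higher (adjusted p = 0.313), and *FUN12*, for eIF5B, had 63 and 169 reads against 229 and 51.

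Large-subunit ribosomal protein mRNAs took 13.0% and 11.9% of mRNA reads with Hel2-HTP and 6.79% and 6.10% in untagged cells, and small-subunit ones 8.35% and 7.75% against 4.94% and 4.56%. Of the tested members 73 of 80 and 50 of 56 were above the background in both libraries (91.2% and 89.3%), with none below, and the medians were 1.97 and 1.77. In the well-covered set 9 of 50 and 7 of 38 were called higher, beside 45 of 463 mRNAs (9.72%). *RPL10* (13132 and 4015 reads against 743 and 44, 13.8-fold), *RPL5* (9.03-fold), *RPL28* (5.23-fold), *RPS2* (15.3-fold) and *RPS3* (19.5-fold) were among these, whereas *RPS31*, the ubiquitin fusion gene, was 11.3-fold higher with an adjusted p of 0.0502, and was called with the block (adjusted p = 1.56e-05). By contrast, mRNAs of mitochondrial ribosomal proteins took 0.37% and 0.39% of mRNA reads against 1.06% and 0.78%. Their median was -0.35, and 7 of 46 tested members were above and 7 below the background in both libraries. These are 15.2% each, beside 35.4% and 11.4% of protein-coding features. Of the 4 members with the highest mean CPM 3 overlapped between the groups, while *MRPS18* (302 and 74 reads against 105 and 6) did not.

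Chaperone mRNAs took 2.74% and 2.82% of mRNA reads against 0.75% and 0.70%, with a median of 3.76 (3.34 with the 5 members absent from a group at their bound) and 20 of 24 tested members above the background. The Hsp70 mRNAs *SSA1* (3496 and 1484 reads against 243 and 14, adjusted p = 0.0135) and *SSA2* (3188 and 1161 against 34 and 18, adjusted p = 0.0242) were called, though they are similar in sequence and may share reads. *HSC82*, an Hsp90 gene, was 20.5-fold higher and called with cDNAs (adjusted p = 0.0303) and the block (adjusted p = 1.93e-05), and *SSB1*, for a ribosome-bound Hsp70, was 5.52-fold higher (adjusted p = 0.0502). Amino acid biosynthesis mRNAs took 3.78% and 3.46% against 2.26% and 2.58% and varied. *MET6* (methionine synthase) had 3740 and 1368 reads against 604 and 9 and was called with cDNAs (adjusted p = 0.0304) and the block (adjusted p = 0.000548). *SHM2* (serine hydroxymethyltransferase) was called at 4.79-fold (adjusted p = 0.0499) but not with cDNAs (adjusted p = 0.105) or the block (adjusted p = 0.160), while *ILV5* had 3755 and 1224 reads against 1870 and 258, which overlapped in CPM and gave a fold of 1.03 that turns below 1 with other scaling. For 40 of the 54 tested members of this group both Hel2-HTP libraries were higher, and 4 of 12 well-covered ones were called.

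The remaining groups had at most 1 called member each among well-covered mRNAs. Of all well-covered mRNAs 9.72% were called higher, so none called among a few members is near that share. For histone mRNAs 9 of 10 members were above the background in both libraries with a median of 2.22. *HHT2*, a histone H3 gene, was 4.33-fold higher (adjusted p = 0.104), and *HHF1*, a histone H4 gene, overlapped at 1.29-fold with a sign that turns with scaling by library totals. Oxidative phosphorylation mRNAs had a median of 1.82 and none of 3 well-covered members was called. Their most abundant members *ATP1* and *ATP2*, for the alpha and beta subunits of ATP synthase, were 7.09-fold and 3.54-fold higher. No proteasome mRNA was well covered, so none could be called there, and the median was 1.24. Of nucleolar and ribosome assembly mRNAs (median 1.51, with *NOP1*, the fibrillarin gene, at 4.46-fold and the helicase gene *DBP2* at 103 and 155 reads against 461 and 25), none of 5 well-covered members was called. For collision sensing, no-go decay and ribosome quality control mRNAs the median was 0.91 over 24 tested members, of which 10 were above the background in both libraries (41.7%, beside 35.4% of protein-coding features). *ASC1*, whose protein lies at the collision interface and whose intron holds *SNR24*, was 3.83-fold higher (adjusted p = 0.0614), *STM1*, for a ribosome-bound protein, 4.01-fold (adjusted p = 0.173), and *SUP35*, for release factor eRF3, 7.46-fold. *XRN1*, for the cytoplasmic 5′ to 3′ exonuclease, had 447 and 167 reads against 308 and 4 and overlapped in CPM, at 1.90-fold. Cell wall and secreted protein mRNAs took 2.74% and 3.08% of mRNA reads against 2.08% and 2.83%, and of their 4 most abundant members 1 overlapped between the groups, while *CCW12* alone was called. Plasma membrane transporter mRNAs took 0.57% and 0.81% against 0.81% and 1.16%, with a median of 0.56, and the proton pump mRNA *PMA1* had 1506 and 1337 reads against 864 and 126, overlapped and turned sign with scaling by library totals. mRNAs of cytoplasmic mRNA-binding proteins took 0.57% and 0.63% against 1.11% and 1.19%, with a median of 0.23, and 3 of their 4 most abundant members overlapped between the groups, all except *YRA1*, for an mRNA export factor (1.94-fold, adjusted p = 0.490). Of the 17 groups, 15 had a median above that of all features, but only 3 did without untagged replicate 1 and 10 without untagged replicate 2.

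**Figure D5:**
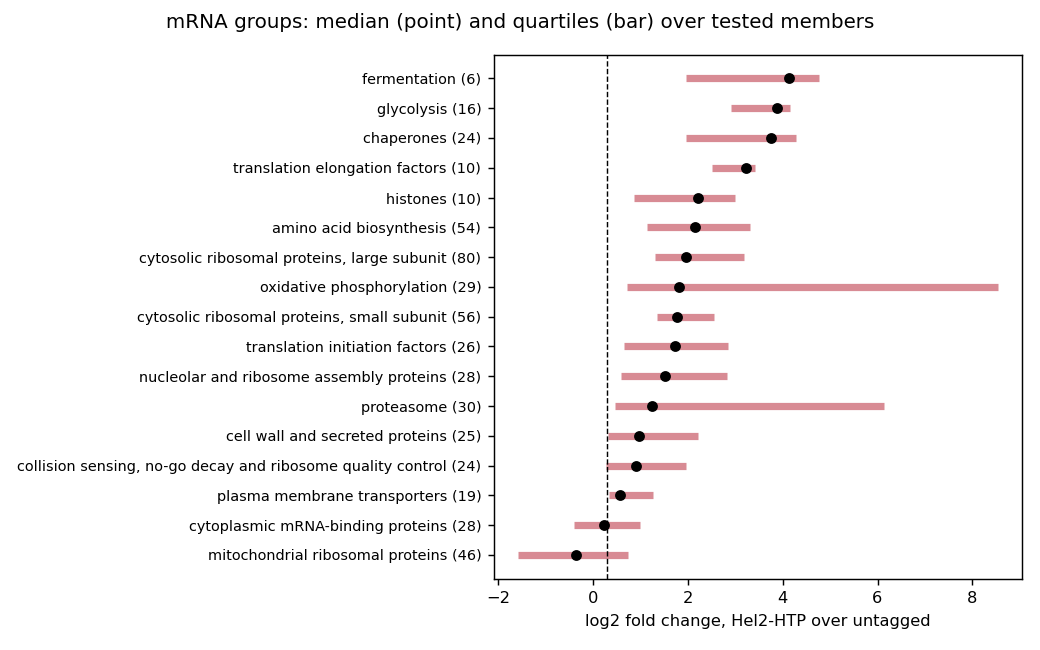
Median (point) and quartiles (bar) of the log2 fold change of Hel2-HTP over untagged for 17 mRNA groups, with the number of tested members in parentheses and a dashed line at the median of all tested features, 0.30. Fermentation, glycolysis, chaperones and elongation factors stand highest, and cytoplasmic mRNA-binding and mitochondrial ribosomal proteins stand below the line.

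Well-covered mRNAs were also described by coding length and by their level in other libraries. The median coding length was 999 nt for the 44 called higher that matched the R64 annotation, 1536 nt for the 9 called lower and 1470 nt for all 455 matched. When these were divided into 4 bins of like size by coding length, the median log2 fold change was 0.99 in the shortest bin (135 to 678 nt), then 0.44 and -0.50, and -0.70 in the longest (2862 to 14733 nt). The 463 mRNAs were also binned by their mean CPM in the Hel2-HTP wildtype libraries at 20°C, which took no part in the fit. These libraries hold RNA of the same tagged protein, so the bins rank mRNAs by the kind of signal that enters the fold change. A rise over the bins is thus partly set by how they were made. The median log2 fold change was -1.06, -0.51, 0.22 and 1.59 from the lowest to the highest bin. Of the 45 mRNAs called higher 37 were in the highest bin, and of the 9 called lower 8 were in the lowest bin. Every well-covered mRNA had at least 10 reads in the shallow untagged replicate 2, where 10 reads are 92.6 CPM. An mRNA with little signal with Hel2-HTP therefore entered only when it was high in the background. The filter thus partly sets the negative medians and the lower calls of the low bins, and the length bins hold the same mRNAs. Transcript abundance was not measured here, and abundance, length and affinity cannot be told apart in these counts. The mRNAs were also split by their last sense codon into the groups that the study relates to New1. The group with a lysine codon and a pair of arginine codons that it treats as strongly affected without New1 had a median log2 fold change of 0.66 over 428 tested mRNAs (0.58 with mRNAs absent from a group at their bound). The group it treats as mildly affected, with cysteine, asparagine, serine and other arginine codons, had 0.35 over 532, and the remaining mRNAs 0.39 over 2496. Both Hel2-HTP libraries exceeded both untagged ones for 38.6%, 32.7% and 35.2% of them, beside 35.4% of all protein-coding features.

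Fewer features were lower with Hel2-HTP. The 9 mRNAs called lower were *BDF2*, *AMN1*, *ASM4*, *MDJ1*, *ROX1*, *ULP2*, *BUD21*, *PET123* and YOR052C (*TMC1*), of which the last 7 are named because they were called and not by the rule for named features. None of the 9 was called with cDNAs or with the block. *BDF2* (chrIV:331024-332940, plus), for a bromodomain protein, had 101 and 55 reads with Hel2-HTP and 451 and 61 in untagged cells, or 50.2 and 90.0 against 328 and 565 CPM (6.37-fold lower, adjusted p = 0.0135, but 0.0625 with cDNAs and 0.374 with the block). *AMN1*, which acts in mitotic exit, had 227 and 146 reads against 743 and 68 (3.33-fold lower, adjusted p = 0.0352, but 0.0893 with cDNAs and 0.658 with the block). *MDJ1*, for a mitochondrial Hsp40, had 52 and 26 against 328 and 18, and *ROX1*, for a repressor of hypoxic genes, had 116 and 31 against 428 and 22. An intergenic transcript was called lower too (105 and 37 reads against 237 and 42, adjusted p = 0.0278), though not with cDNAs or the block, and *SLM2*, for a TORC2-binding protein, had 0 and 5 reads against 39 and 35 and was not well covered. These are low read numbers, and a lower share in the Hel2-HTP libraries does not say that Hel2 avoids an mRNA, since every share is relative to the other RNAs of the library.

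Nuclear RNAs served as markers of RNA outside the translating pool. snoRNAs, which guide rRNA modification in the nucleolus, took 0.441% and 0.734% of reads with Hel2-HTP and 0.997% and 3.01% in untagged cells, 3.41-fold less in the means (exact permutation p = 0.33). Of 69 tested snoRNAs 8 were above the background in both libraries (11.6%) and 14 below (20.3%), beside 33.8% and 12.6% of all tested features. *SNR47* had 105 and 114 reads against 517 and 137 (6.89-fold lower, adjusted p = 0.0342). It was the only one of 30 well-covered snoRNAs called lower, which at 3.33% is near the 2.16% of all well-covered features. *SNR41* (108 and 227 against 1148 and 120, adjusted p = 0.0659), *SNR61* (149 and 247 against 827 and 142) and *SNR39B* (201 and 60 against 272 and 48) did not pass. *SNR47* was also called with the block (adjusted p = 0.0487) but not with cDNAs (adjusted p = 0.0512), and *SNR41* was called with the block (adjusted p = 0.0460). The U6 spliceosomal RNA *SNR6* had 649 and 125 reads against 1128 and 72 (2.82-fold lower, adjusted p = 0.0779). Of the opposite sign, *SNR30*, needed for 18S rRNA processing, had 495 and 247 reads against 84 and 7 (5.17-fold higher), and *NME1*, the RNA of RNase MRP, had 175 and 30 reads against none. The cytoplasmic RNA of the signal recognition particle, *SCR1*, had 3988 and 926 reads against 534 and 60 and was 3.71-fold higher (adjusted p = 0.0797), whereas the telomerase RNA *TLC1* had 257 and 34 against 216 and 18. Mitochondrial rRNA, which cytoplasmic ribosomes do not hold, took 0.000133% and 0.0113% of reads with Hel2-HTP and 0.0169% and 0.0198% without it, while mitochondrial mRNAs (184 and 110 reads against 117 and 16) overlapped in share and mitochondrial tRNAs had 116 and 12 reads against none.

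The strain labels could be examined only in part. *HEL2*, listed as YDR266C, had 217 and 129 reads with Hel2-HTP against 99 and 5 (2.70-fold, adjusted p = 0.713 in the main test), and *NEW1*, present in both strains, had 220 and 105 against 89 and 6. *LEU2*, known to be deleted in BY4741, had no read in any of the 4 libraries. *HIS3* had 19 and 53 reads against 124 and 6 although BY4741 is known to lack part of the gene. Nothing in the counts tests for the tag itself, and *URA3*, which marks the fusion, was not analysed here.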

How the data were processed

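The authors aligned the CRAC reads with Novoalign and counted them with pyReadCounters (version 1.4.2, per the file headers) on Ensembl release 74 annotation with noncoding transcripts added. The deposited counts are sense reads per feature, not collapsed or normalized. A second deposited column counts distinct cDNAs on both strands. RPKM columns were not used. A read is counted on every feature it overlaps.

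tRNA features were summed by anticodon and rRNA copies by species, and the rRNA precursor was kept as its spacers, which left 21036 features. Of 6454 protein-coding features, 5865 matched the RefSeq R64 annotation. edgeR 4.0.16 in R 4.3.3 (filterByExpr, TMM, quasi-likelihood F-test, Benjamini-Hochberg at 0.05) compared 2 with 2 libraries. The alternatives were DESeq2 1.42.0, other scaling and filters, cDNAs, a replicate block and leaving out each library. The script was run on simulated data with known changes. Shares were compared with exact permutation tests in scipy 1.17.1. A group without reads was allowed 3 reads per library for a lower bound.

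Features were named by rule: the 10 with the lowest p in each direction with at least 30 reads in both libraries of the higher group (none passed the threshold), the 10 mRNAs with the most reads, the most abundant members of each gene group, rRNAs, tRNA types and strain markers. Libraries, groups and lists were chosen with earlier results of these data known. Libraries of the same number shared a sequencing run, per the study's methods, and are paired by it. The correlation of their deviations from the group means was -0.0235 (Pearson's r over 4145 features). The methods pair replicates for ratios of *new1Δ* to wildtype and state no test of Hel2-HTP against untagged cells. The main test has no block, and the block is an alternative whose adjusted p is given where it changes a call. The study's methods call the replicates biological. Without the block the p-values measure the spread between 2 libraries a group, drawn by edgeR towards the spread of all tested features. With the block they rest on a spread pooled over features.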

Additional observations from a re-analysis of the deposited data

How the results depend on the processing

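The number of called features depended on the setting. It was 0 with DESeq2 size factors (487 features at an unadjusted p under 0.05), with library totals (474) and for protein-coding genes alone (464), as in the main test (587). It was 127 with DESeq2 (110 higher, 17 lower), 163 without a filter on low counts (all higher), 69 with at least 10 reads in every library, 155 with the replicate block (152 higher, 3 lower), 65 with the *new1Δ* libraries added for the spread (all higher) and 170 with cDNAs. Leaving out 1 library gave between 71 and 453 calls, with 453 without untagged replicate 2, 262 without untagged replicate 1, 91 without Hel2-HTP replicate 1 and 71 without Hel2-HTP replicate 2, where the lone library of a group was assumed to vary like the other group. The replicate block, which pairs libraries of 1 sequencing run, cannot move a difference of mean shares with 1 library of each group per run, so it says nothing about the shares. Differences in the shares of rRNA, mRNA, tRNA and snoRNA and in the 18S share, whose alternatives were chosen after seeing the data, kept their direction under every alternative run. The mRNA difference of 8.30 percentage points was 0.113 with cDNAs, which are counted on both strands. The excess of tS(AGA) among tRNA reads, 11.1 percentage points, was 2.19 with cDNAs and between 8.61 and 13.6 with a library left out. The number of gene groups above the median of all features was 15, and between 13 and 16 under other scaling, filters, cDNAs and the block, but 3 without untagged replicate 1, where the median over all features was 6.26 and the cause was not tested. It was 10 without untagged replicate 2. Of the values compared for single features, 752 kept their direction and side of the threshold, 354 passed it only under an alternative and 21 turned. These did not cover every feature named by the rule. With library totals *NPL3* (0.18 in the main test, -0.58), *BAP2* (0.42, -0.39), *ITR1* (0.29, -0.54), *HHF2* (0.50, -0.36), *RPN6* (0.16, -0.50) and *SNR37* (0.055, -0.81) turned as well. With library totals the log2 fold change was -0.48 for RDN5, -0.50 for the rRNA spacers, -0.0099 for tY(GUA), -0.28 for PMA1, -0.83 for ILV5 and -0.55 for HHF1. With cDNAs it was -0.58 for RDN5, -0.66 for the spacers, -0.0806 for XRN1 and -0.10 for HHF1, and with at least 10 reads -0.0125 for RDN5. For ILV5 it was -0.30 with DESeq2 and with its size factors, -0.27 with at least 10 reads and -0.0596 for protein-coding genes alone. With a library left out it ranged from -0.0258 to 0.97 for RDN5, from -0.12 to 8.73 for tMi(CAU), from -0.19 to 1.45 for PMA1, from -0.28 to 0.48 for ILV5, from -0.18 to 1.27 for HHF1 and from -2.87 to 0.41 for HIS3. Untagged replicate 2 had 70564 reads, and the part of depth in the number of calls was not tested.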
